A study of Arabidopsis thaliana with 9 samples.

Results

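The alternative oxidase and alternative NADH dehydrogenase genes of *Arabidopsis thaliana* were followed in imbibed seeds that lacked a NAC transcription factor. The set held 9 of the 33557 genes in the authors' deposited table, found by their locus identifiers in each of its 3 comparisons: the alternative oxidase genes AOX1A (AT3G22370), AOX1C (AT3G27620), AOX1D (AT1G32350, listed there as AOX3) and AOX2 (AT5G64210), the internal dehydrogenase genes NDA1 (AT1G07180) and NDA2 (AT2G29990), the external dehydrogenase genes NDB2 (AT4G05020) and NDB3 (AT4G21490), and UPOX (AT2G21640). RNA came from whole seeds after 12 h of imbibition on 0.6% agarose, 20 mg of seeds per sample. The 9 samples were 3 biological replicates each of the wild type Col-0 (WT), of the loss-of-function mutant *nac1L* and of the loss-of-function mutant *nac25*. Neither the kind of lesion in each mutant nor the number of independent lines is given in the labels. All 3 groups share the tissue, the time and the imbibition medium, no other agent is named, and each sample pools many seeds.

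Plant mitochondria can pass electrons along a route that pumps few or no protons. Alternative NADH dehydrogenases feed electrons from NADH into ubiquinone without complex I, the NDA enzymes from the matrix side and the NDB enzymes from the outer side of the inner membrane, and alternative oxidase passes electrons from ubiquinol straight to oxygen, past complexes III and IV. AOX1A is the isoform best known for induction when mitochondria are disturbed, whereas AOX2 transcripts are known from dry and early imbibed seeds. UPOX is a mitochondrial protein whose transcript rises under oxidative stress. It is neither an oxidase nor a dehydrogenase and serves as a marker of that response.

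The genes of the alternative pathway did not move together in the mutants. NDA1, NDA2 and NDB2 rose by 1.34-fold to 1.52-fold in both mutants, NDB3 fell by more than 12-fold in both, and AOX1A and UPOX fell in both, in the authors' deposited table. AOX2 rose in *nac1L* and did not pass in *nac25*, AOX1C passed in neither mutant, and AOX1D had too few reads for a test. No member passed the authors' direct test between the mutants (0 of 7 tested by Cuffdiff q, and AOX1A alone at an unadjusted p below 0.05), beside 12.3% of the 17743 genes tested there, 0.609% called higher in *nac25* and 11.7% lower. A gene is called higher or lower here where the deposited q, which the authors' software Cuffdiff adjusted over all tests, is at or below 0.05. The table gives a log2 fold, a p and a q per comparison and no value per library or genotype, so levels, depth and the spread between replicates are unknown and no standard deviation can be given. Both mutants are set against the same WT libraries, and their values below are therefore given side by side and not as independent repeats.

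Of the 8 members tested in *nac1L*, 4 were higher and 3 lower, beside 9.62% of the 18233 tested genes called higher and 18.9% called lower. Of the 8 tested in *nac25*, 3 were higher and 3 lower, beside 6.25% of 18155 tested genes called higher and 32.8% called lower. Calls in either direction thus took in 7 and 6 of 8 members, where 28.5% and 39% of all tested genes were called. The members were chosen with earlier results of these data known, so these counts are no test of the set. The median log2 fold of the members tested was 0.02 in *nac1L* and -0.03 in *nac25*, against medians of -0.07 and -0.27 over all tested genes. The *nac25* comparison as a whole is thus shifted down. With folds centred on those medians and each p recomputed from the standard error that the deposited fold and p imply, the calls over all genes changed from 1754 higher and 3449 lower to 2272 and 2773 in *nac1L*, and from 1135 and 5951 to 2874 and 2675 in *nac25*. That is 12.5% of tested genes higher and 15.2% lower in *nac1L*, and 15.8% and 14.7% in *nac25*. Centring left 4 members higher and 2 lower in *nac1L*, and 4 higher and 3 lower in *nac25*.

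**Figure D1:**
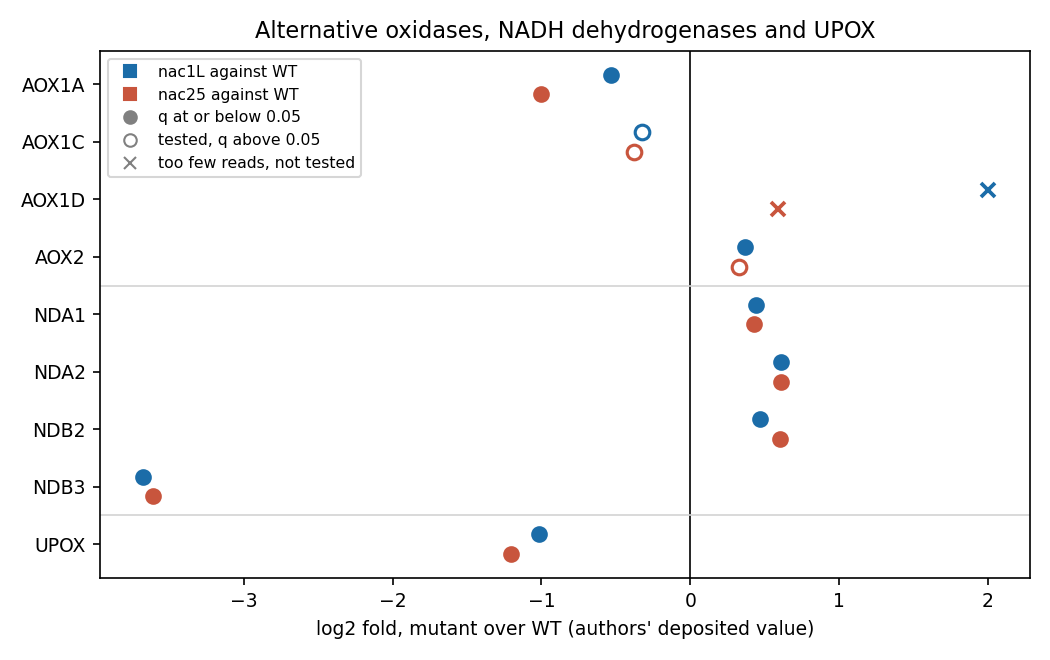
Log2 fold of each of the 9 genes in *nac1L* (blue) and *nac25* (red) over WT, as deposited by the authors. Filled circles passed q of 0.05, open circles were tested and did not pass, and crosses had too few reads for a test. NDB3 lies at -3.68 and -3.61, UPOX and AOX1A lie between -0.53 and -1.20, and NDA1, NDA2 and NDB2 lie between 0.43 and 0.61.

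The targeted genes had lower folds in their own mutants, NAC25 with a log2 of -3.97 in *nac25* and NAC1L (taken as AT3G12977) of -4.61 in *nac1L*. Each was also low in the other mutant, NAC25 with -2.66 and NAC1L with -1.89, but reads were too few for a test of either gene in the authors' deposited table. Whole seeds were sampled, so fewer cells of a type and less RNA per cell cannot be told apart. The tissue label was checked with storage protein and oleosin genes: of 8 such seed markers 4 had too many reads for a test against WT, and of the other 4, 2 were lower in *nac1L* and 2 higher and 1 lower in *nac25*. The endosperm marker EPR1 also had too many reads for a test. Both endosperm markers with a test, EXPA2 (log2 -4.21 and -4.88) and MAN7 (-1.73 and -2.06), and all 3 embryo markers, SHR (-2.78 and -3.06), LTP1 (-1.95 and -3.25) and PDF1 (-0.87 and -0.50), were lower in both mutants in the authors' deposited table, with the *nac25* call of PDF1 lost after centring. The 3 seed coat markers had too few reads. Beside these marker counts, 9.62% of all tested genes were higher and 18.9% lower in *nac1L*, and 6.25% and 32.8% in *nac25*. The part of these marker changes in the values of the members was not tested.

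A sequence feature was shared by members that moved in opposite directions. The mitochondrial dysfunction motif is a short sequence bound by NAC factors such as ANAC017 and ANAC013, which carry signals from disturbed mitochondria to the nucleus. It was searched on both strands as CTTG, any 5 bases, then CAAG or CACG, in the 250 bases before and the 50 bases after each annotated gene start of RefSeq's TAIR10.1 assembly. It was present in 5 of the 9 members (AOX1A, NDA1, NDB2, NDB3 and UPOX) and in 391 of 27443 protein-coding genes (1.42%). The motif was defined in the literature on stress-responsive genes that included AOX1A, UPOX and NDB2, so its presence there is not an independent finding. In 4 members the match lay wholly upstream of the gene start. The 130 bases before the start of each are shown 5′ to 3′ on the gene's own strand, with the match in capitals, because these 4 windows carry the same motif beside NADH dehydrogenase genes that rose and genes that fell:

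NDA1 (chr1:2203974-2204103, plus strand): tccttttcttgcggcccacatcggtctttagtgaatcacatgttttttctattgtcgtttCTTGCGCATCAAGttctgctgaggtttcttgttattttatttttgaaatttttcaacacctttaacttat

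NDB2 (chr4:2572297-2572426, plus strand): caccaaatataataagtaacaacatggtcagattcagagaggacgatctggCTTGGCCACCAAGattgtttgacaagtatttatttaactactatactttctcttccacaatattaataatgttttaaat

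NDB3 (chr4:11439507-11439636, minus strand): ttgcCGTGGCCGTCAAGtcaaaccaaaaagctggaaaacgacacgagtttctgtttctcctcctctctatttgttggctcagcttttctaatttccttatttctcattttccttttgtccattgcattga

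UPOX (chr2:9254248-9254377, plus strand): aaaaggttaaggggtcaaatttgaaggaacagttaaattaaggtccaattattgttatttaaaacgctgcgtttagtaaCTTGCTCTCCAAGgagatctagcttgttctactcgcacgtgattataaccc

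The match began 70 bases upstream of the start in NDA1, 79 in NDB2, 126 in NDB3 and 51 in UPOX. AOX1A (chromosome 3, plus strand) held 2 matches at its annotated start and none further upstream within the 250 bases searched. The first, CTTGGCGACCACG, ran from 3 bases before the start to base 10 of the transcript (chr3:7906518-7906530), and the second, CTTGCTCTCCAAG, from base 25 to base 37 (chr3:7906545-7906557). The second is letter for letter the match of UPOX. The match of NDB3 reads CGTG to CAAG on the gene's own strand, which is the CTTG to CACG form on the opposite strand. Of the 5 members with a match, 2 were higher and 3 lower in either mutant, and of the 3 tested members without one, 2 were higher in *nac1L* and 1 in *nac25*. Among all genes with a match, 13.4% of 179 tested were higher and 19.0% lower in *nac1L*, and 9.60% of 177 were higher and 28.2% lower in *nac25*. Over all tested genes these shares were 9.62% and 18.9% in *nac1L*, and 6.25% and 32.8% in *nac25*. A G-box (CACGTG, the core of many abscisic acid response elements) stood 2 times in the AOX2 window, at 228 and 114 bases upstream, once in UPOX, 16 bases upstream, and once at the very start of NDB3. It was present in 7.68% of all windows. It overlapped the dysfunction motif in none of the members. A match describes letters in a window and does not show that a factor binds there.

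**Figure D2:**
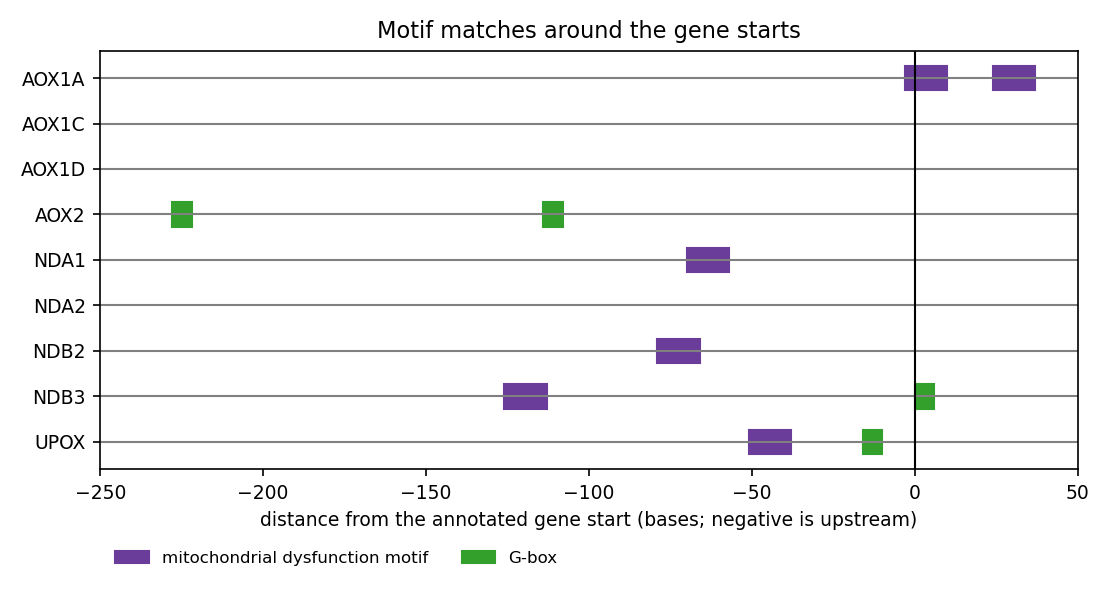
Matches of the mitochondrial dysfunction motif (purple) and the G-box (green) in the 9 genes, by distance from the annotated gene start in bases, with upstream to the left. AOX1A, NDA1, NDB2, NDB3 and UPOX hold the dysfunction motif, and AOX1C, AOX1D and NDA2 hold neither.

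Among the oxidases, AOX1A and AOX2 were called in opposite directions in *nac1L*. AOX1A was 1.45-fold lower in *nac1L* in the authors' deposited table (log2 -0.53, p = 0.0101, Cuffdiff q = 0.0403). In *nac25* the fall was 2.01-fold (log2 -1.005) at the smallest Cuffdiff q of the authors' deposited table, 0.000463. The *nac1L* call of AOX1A was close to the threshold and was lost after centring (log2 -0.47, q = 0.0924), while the *nac25* call passed there as well (log2 -0.74, q = 0.0193). Its value in *nac25* was lower than in *nac1L* by 0.47 on the log2 scale in the authors' deposited table, which did not pass (p = 0.0297, Cuffdiff q = 0.0909). AOX1A was thus below WT in both mutants, and a step from one mutant to the other was not called. It holds the motif at its start and no G-box, the reverse of AOX2, the isoform associated with seeds. AOX2 was 1.29-fold higher in *nac1L* in the authors' deposited table (log2 0.36, Cuffdiff q = 0.0438). Its fold in *nac25* was of similar size (log2 0.33, Cuffdiff q = 0.0767) but did not pass in the authors' deposited table. Relative to the shift of all genes it was 0.59 and passed (q = 0.00106). The direct test of AOX2 between the mutants gave a log2 fold of -0.04 (Cuffdiff q = 0.861) in the authors' deposited table.

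AOX1C, an isoform linked to development more than to stress, had log2 folds of -0.32 in *nac1L* and -0.38 in *nac25* in the authors' deposited table and did not pass in either (Cuffdiff q = 0.449 and 0.392). AOX1D, which is known as a stress-induced isoform, had too few reads in all 3 comparisons. Its untested log2 folds of 2.00 in *nac1L* and 0.59 in *nac25* in the authors' deposited table rest on few reads and give no direction. AOX1B, which lies next to AOX1A on chromosome 3, was also left untested for too few reads and has a fold of 0 in all 3 comparisons of the authors' deposited table. The coding sequences of AOX1A and AOX2 matched at 64.7% of aligned positions and shared no exact run longer than 18 bases, and AOX1A and AOX1C matched at 71.5% with a longest run of 34. Reads of AOX1B and AOX1C, which matched at 84% with a run of 42, would be the hardest to tell apart.

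The internal dehydrogenases NDA1 and NDA2 rose in both mutants by nearly the same amounts. NDA1 was 1.36-fold higher in *nac1L* (log2 0.44, Cuffdiff q = 0.00351) and 1.34-fold higher in *nac25* (log2 0.43, q = 0.00437) in the authors' deposited table. NDA2 was 1.52-fold higher in both (log2 0.61 and 0.61, Cuffdiff q = 0.000463 for each) in the authors' deposited table. Set directly against each other, the mutants had log2 folds of -0.01 for NDA1 and -0.00094 for NDA2 (Cuffdiff q = 0.950 and 0.996) in the authors' deposited table, which does not by itself show that the mutants are alike. In that comparison the median of all tested genes was -0.20, and 85.2% of 17743 tested genes had a lower fold than NDA2. The NDA1 and NDA2 coding sequences are alike, with 78.9% of aligned coding positions identical and a longest exact run of 32 bases, but NDA1 holds the dysfunction motif and NDA2 does not. Their folds are small and lie high among all genes: 94.2% of tested genes in *nac1L* and 96.1% in *nac25* had a lower fold than NDA2. For NDA1 these shares were 89.5% and 92.9%.

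The external dehydrogenases NDB2 and NDB3 were called in opposite directions. NDB2, which oxidises cytosolic NADH, was 1.38-fold higher in *nac1L* (log2 0.47, Cuffdiff q = 0.00226) and 1.52-fold higher in *nac25* (log2 0.60, q = 0.000463) in the authors' deposited table. Between the mutants the log2 fold of NDB2 was 0.13 in the authors' deposited table (Cuffdiff q = 0.446). After centring it was 0.33 and passed (q = 0.0360), beside 2.72% of all genes tested there with a higher call and 1.56% with a lower one. NDB3 fell 12.8-fold in *nac1L* (log2 -3.68) and 12.2-fold in *nac25* (log2 -3.61, Cuffdiff q = 0.000463 for each) in the authors' deposited table. It had the largest change of the members tested, with 93 of 18233 tested genes lower still in *nac1L* and 183 of 18155 in *nac25*. NDB3 could be tested against WT but not between the mutants, where the authors' deposited table marks it as having too few reads. The size of its fold therefore rests on few reads in the mutants, and its precision is unknown.

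NDB2 and NDB3 are close relatives, with 79.0% of aligned coding positions identical and a longest exact run of 37 bases, yet they went opposite ways. Both also carry the dysfunction motif in the upstream windows shown above. In TAIR10.1, 101 bases of NDB3 overlap the noncoding locus AT4G07010 on the same strand, so reads from that stretch may be shared. No other member overlaps an annotated gene. The remaining NDB genes were not called against WT. NDB1 had log2 folds of -0.25 and -0.46 in *nac1L* and *nac25* (Cuffdiff q = 0.595 and 0.365) in the authors' deposited table. NDB4 had too few reads and, by its infinite *nac25* folds in the authors' deposited table, is listed at 0 in WT and *nac1L*. NDC1, a related dehydrogenase also found in chloroplasts, had log2 folds of -0.04 and -0.24 (Cuffdiff q = 0.884 and 0.295) in the authors' deposited table. PTOX, the plastid counterpart of alternative oxidase, was lower in *nac25* (log2 -0.40, Cuffdiff q = 0.0166) and not called in *nac1L* (log2 -0.25, q = 0.143) in the authors' deposited table, and its *nac25* call was lost after centring.

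UPOX fell in both mutants. It fell 2.03-fold in *nac1L* (log2 -1.02) and 2.30-fold in *nac25* (log2 -1.20, Cuffdiff q = 0.000463 for each) in the authors' deposited table, and both calls passed after centring (log2 -0.95 and -0.93, q = 0.00242 and 0.0124). Only 7.62% of tested genes in *nac1L* and 10.1% in *nac25* lay below it.

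**Figure D3:**
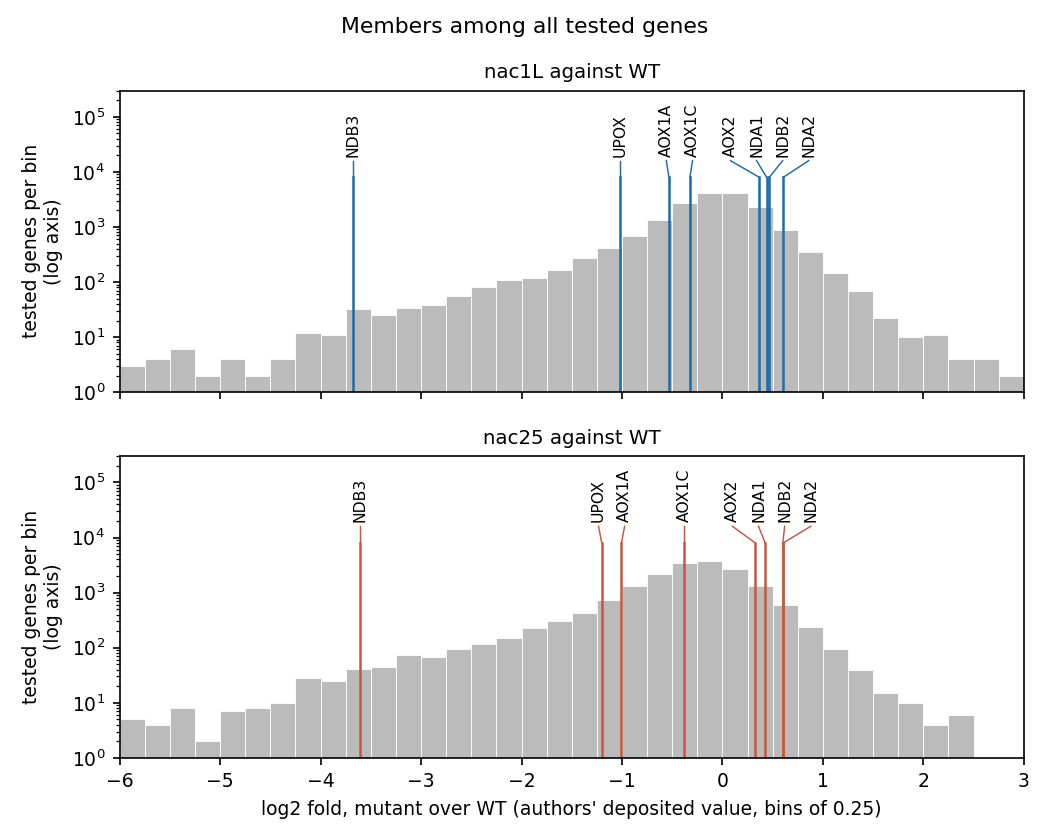
Number of tested genes by log2 fold over WT in bins of 0.25 (grey, log axis) for *nac1L* (top) and *nac25* (bottom), with the 8 tested members as vertical lines. The axis leaves out 60 and 81 tested genes with folds beyond its ends or infinite. NDB3 stands in the lower tail in both panels, and NDA1, NDA2 and NDB2 stand on the upper shoulder.

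Of 15 genes listed from the literature as responding to mitochondrial dysfunction, 9 were tested. In *nac1L* 2 were higher and 3 lower, beside 9.62% and 18.9% of all tested genes. In *nac25* 2 were higher and 4 lower, beside 6.25% and 32.8%. After centring 2 were higher and 1 lower in *nac1L*, and 2 higher and 2 lower in *nac25*. The centred shares of all tested genes were 12.5% higher and 15.2% lower in *nac1L*, and 15.8% and 14.7% in *nac25*. The transporter gene ABCB9 was higher (log2 1.61 and 1.91 in *nac1L* and *nac25*), as was the cytochrome P450 gene CYP81D8 (0.64 and 0.61), in the authors' deposited table. The dicarboxylate carrier gene DIC2 (-1.24 and -1.69) and the sulfotransferase gene SOT12 (-0.75 and -1.35) were lower in both mutants in the authors' deposited table, with the *nac1L* call of SOT12, which was near the threshold (Cuffdiff q = 0.0256), lost after centring at a log2 fold of -0.68 (q = 0.0538). CRF6, a cytokinin response factor gene, was called in *nac25* (log2 -0.86) and not in *nac1L* (-0.23) in the authors' deposited table, a call lost after centring. OM66 and At12CYS-2, which are often used with AOX1A and UPOX as markers of this response, had too few reads for a test. The list's median log2 fold was -0.23 in *nac1L* and -0.29 in *nac25*.

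Of the regulators of this response, the NAC factors were not called lower against WT. Of 12 regulators listed, 10 were tested, with 2 higher and 1 lower in *nac1L* and 1 higher and 1 lower in *nac25*. Of all tested genes, 9.62% were higher and 18.9% lower in *nac1L*, and 6.25% and 32.8% in *nac25*. The *nac25* counts became 3 higher after centring, 0 higher at a q of 0.01 and 2 lower with adjustment within the comparison. The matching shares of all tested genes were 15.8%, 4.13% and 35%. Between the mutants, 1 of 9 tested was lower in *nac25*, beside 11.7% of all tested genes. That call also passed a q of 0.01 and was lost after centring. WRKY63, named after its values were seen, had log2 folds of -1.43 and -3.71 in the authors' deposited table and was not called (Cuffdiff q = 0.0581 and 0.170). ANAC017, the membrane-bound factor that is released when mitochondria are disturbed, had log2 folds of 0.12 and 0.01 (Cuffdiff q = 0.472 and 0.946) and ANAC013 of 0.21 and -0.02 (q = 0.191 and 0.910) in the authors' deposited table. ANAC016, a close relative of ANAC017, was higher in both (log2 0.71 and 0.51), and WRKY15 was higher in *nac1L* (log2 0.42) in the authors' deposited table. ABI4, which is known to repress AOX1A, was lower in both mutants (log2 -1.37 and -1.66, Cuffdiff q = 0.000463 for each) in the authors' deposited table.

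The cytochrome route, which alternative oxidase bypasses, held genes called lower in both mutants. Of 14 complex III genes 6 were lower and 0 higher in *nac1L*, and 9 were lower and 0 higher in *nac25*. Of 11 genes of complex IV and cytochrome c, 6 were lower and 0 higher in *nac1L*, and 8 were lower and 0 higher in *nac25*. These are calls by the deposited Cuffdiff q, beside 18.9% of all tested genes lower in *nac1L* and 32.8% in *nac25*. With 9.62% and 6.25% of all tested genes higher, a count of 0 in lists of this size is near the background. At an unadjusted p below 0.05 the subunit gene QCR7-2 was higher in both mutants and CYTC-2 in *nac25*, both named here after their values were seen, and 0 of the 11 were higher in *nac1L*. Their median log2 folds were -0.32 and -0.46 for complex III, and -0.47 and -0.53 for complex IV and cytochrome c. Among them QCR8-2 (AT5G05370, log2 -1.32 and -1.94), a small subunit of complex III, COX5C-3 (AT5G61310, -0.79 and -1.18) and COX5C-2 (AT3G62400, -0.82 and -0.92), small subunits of complex IV, and the electron carrier gene CYTC-1 (-0.48 and -0.86) were lower in both mutants in the authors' deposited table. After centring, 5 complex III genes were lower and 1 higher in *nac1L*, and 2 lower and 2 higher in *nac25*. Of all tested genes, 15.2% were then lower and 12.5% higher in *nac1L*, and 14.7% and 15.8% in *nac25*. The centred *nac25* counts of complex III are thus near the background. Of complex IV and cytochrome c, 5 were then lower and 0 higher in *nac1L*, by the recomputed q or at a recomputed p below 0.05, and 3 lower and 1 higher in *nac25*. Over both log2 folds against WT, the genes closest to AOX1A among 81 tested genes of the mitochondrial lists were CYTC-1, the complex I subunit gene B8 (AT5G47890) and QCR6-1 (AT1G15120), at Euclidean distances of 0.156, 0.242 and 0.244.

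Complexes I and II also deliver electrons to ubiquinone, beside the NDA and NDB enzymes. Of 16 nuclear genes of complex I, 4 were lower in *nac1L* and 8 in *nac25*, beside 18.9% and 32.8% of all tested genes, so that the *nac1L* share is near the background. After centring, 4 were lower and 1 higher in *nac1L*, and in *nac25* B8 alone was lower and 1 gene higher. The centred shares of all tested genes were 15.2% lower and 12.5% higher in *nac1L*, and 14.7% and 15.8% in *nac25*. B8 (log2 -0.64 and -0.79), FRO1 (-0.41 and -0.58) and GAMMA_CA2 (-0.40 and -0.62) were lower in both mutants in the authors' deposited table. Of 9 tested genes of complex II, succinate dehydrogenase, 2 were higher and 2 lower in *nac1L*, and 1 higher and 4 lower in *nac25*. After centring the *nac25* balance turned to 3 higher and 2 lower. The genes for the iron-sulfur subunit went opposite ways. SDH2-1 (log2 -0.82 and -1.26) and SDH2-2 (-0.94 and -1.27) were lower and SDH2-3 (0.43 and 0.51), the form known from seeds, was higher in both mutants in the authors' deposited table. These 3 genes passed in both mutants after centring too. Of 8 nuclear ATP synthase genes, 1 was higher and 1 lower in *nac1L*, and 1 higher and 3 lower in *nac25*. The 3 lower calls became 1 at a q of 0.01 and 0 after centring. Of all tested genes, 9.62% were higher and 18.9% lower in *nac1L*, and 6.25% and 32.8% in *nac25*. In lists of 8 or 9 genes, the uncentred counts of ATP synthase and complex II are near the background. Carriers that let protons or dicarboxylates across the inner membrane were lower where called, 2 of 5 tested in *nac1L* and 3 of 5 in *nac25* beside 18.9% and 32.8% of all tested genes, with DIC2 counted here and among the stress genes. UCP1, an uncoupling protein gene (log2 -0.98 and -1.14), was lower in both mutants beside DIC2, and DIC1 in *nac25* (-1.66), in the authors' deposited table.

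**Figure D4:**
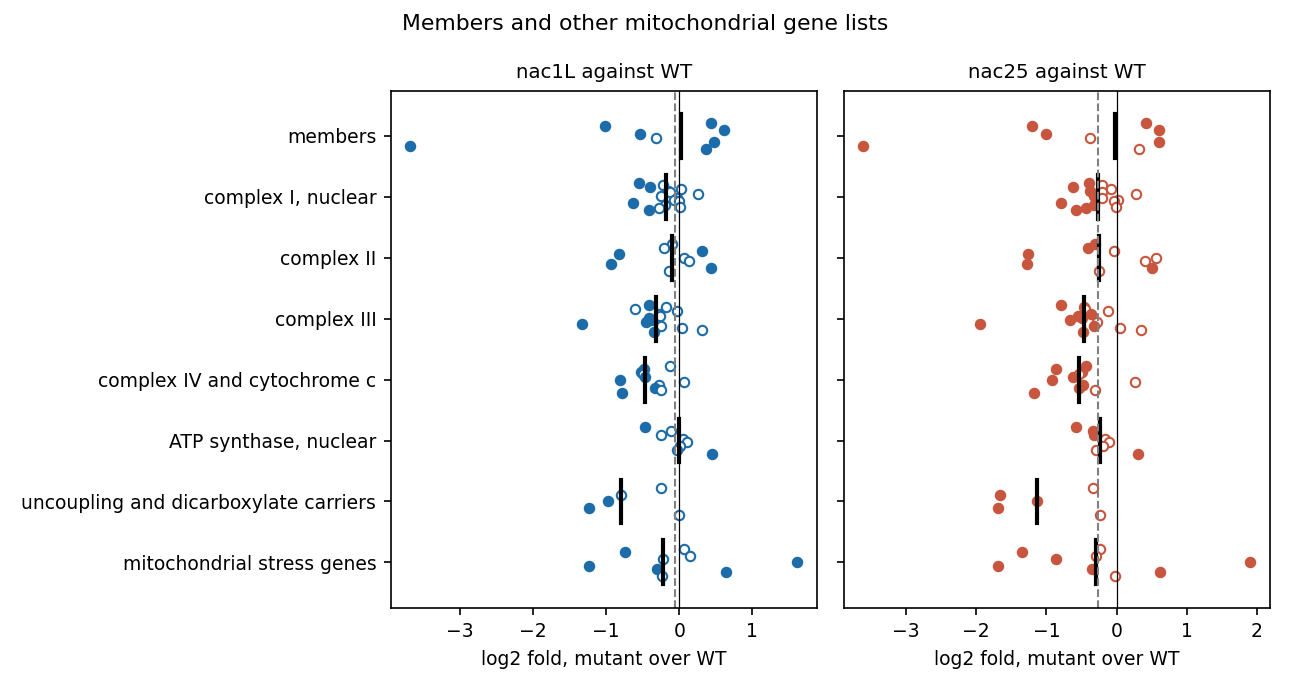
Log2 fold over WT of each tested gene (circles, filled where q was at or below 0.05) in 8 gene lists, for *nac1L* (left) and *nac25* (right). Black bars are list medians and the dashed line is the median of all tested genes. The members spread from -3.68 to 0.61, while most complex III and complex IV genes lie below 0.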

How the data were processed

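RNA from 9 seed samples was sequenced as stranded libraries, per the labels' protocols. The submitters' processing notes name TopHat2 2.1.0, Cuffdiff 2.2.1.3 and FastQC 0.11.5, with no genome build or annotation in the sources used here. The authors deposited 1 table of 3 pairwise comparisons with a log2 fold change, a p-value and a q-value for each of 33557 genes. It holds no count or value per library, so depth is unknown and no interval can be given. The tests planned for counts or normalized values could not be run for the same reason. Adjusting the 54131 deposited p-values together by the Benjamini-Hochberg method gives the authors' q-values to within 5.27e-07. The smallest p is 5e-05 and 5843 tests share it, so p does not rank those genes. Of the log2 folds, 2222 are infinite and 3122 are spreadsheet errors, read as minus infinity. Folds are read as the mutant over WT, or *nac25* over *nac1L*.

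Genes with a q at or below 0.05 were called. Alternatives were a q of 0.01, adjustment within each comparison, and centring on the median of all tested genes, which was tested on simulated data and makes too few calls where p is at its smallest. In the simulation few genes changed, with both signs drawn alike. In the data 28.5% and 39% of tested genes were called in *nac1L* and *nac25*, mostly lower. The simulation therefore cannot show how centring acts where the median itself holds real change. Members and lists were chosen with earlier results of these data known. Named are all members and family genes, the targeted genes, EXPA2, up to 4 called genes with the largest fold per list and mutant, and the 3 genes nearest AOX1A. Members matched RefSeq by locus identifier (124 of 124 list genes), and sequences are from RefSeq's TAIR10.1. Python 3.11.15, numpy 2.4.6, pandas 2.3.3, scipy 1.17.1 and matplotlib 3.10.9 were used.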

Additional observations from a re-analysis of the deposited data

Results flagged for a closer look

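None of the 7 members tested between the mutants was called in the authors' deposited table by its Cuffdiff q, beside 12.3% of the 17743 genes tested there. For a set this small that is near the background. AOX1D and NDB3 had too few reads for that test. By the same q, 10 genes named from the other lists were called. These values are log2 folds of *nac25* over *nac1L* from the authors' deposited table, and their difference was tested there. Among respiratory genes, SDH4 of complex II had -0.35, QCR6-1 and QCR8-2 of complex III had -0.39 and -0.62, CYTC-1 had -0.37 and COX5C-3 of complex IV had -0.38. In the opposite direction, SDH3-2 of complex II, outside the rule for named genes and chosen after its values were seen, had 0.50 in the authors' deposited table (Cuffdiff q = 0.0441). Among seed storage genes, CRU2 had 0.68 and AT2S2 had 0.49. The endosperm gene EXPA2 had -0.67, and the embryo genes LTP1 and PDF1 had -1.30 and 0.37. The median over all tested genes in that comparison was -0.20, and after centring on it none of these 5 respiratory genes passed. After centring, 4 respiratory genes were higher in *nac25* than in *nac1L*, SDH3-2 among them, and 0 were lower, by the recomputed q or at a recomputed p below 0.05. By the recomputed q, 2.72% of all genes tested there were higher and 1.56% lower.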

How the results depend on the processing

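Among the members, adjusting within each comparison kept the direction and the side of the threshold of all 23 tested values. At a q of 0.01 this held for 21, and AOX1A and AOX2 lost their *nac1L* calls. After centring it held for 15. AOX1A lost its *nac1L* call, AOX2 gained one in *nac25*, and NDB2 gained one in *nac25* over *nac1L* (0.33, q = 0.0360), so that 1 member was higher there in place of 0. The centred *nac25* over *nac1L* folds of AOX1C (0.15), AOX2 (0.16), NDA1 (0.19), NDA2 (0.20) and UPOX (0.018) changed sign, none of them called. The construction of the centring, which adds 0.20 to each of these folds, accounts for the sign changes.

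Of the 58 tested respiratory complex genes, 3 were higher in *nac1L*, and 5 after centring, while 19 were lower, and 17 after centring. Over all tested genes, 9.62% were higher and 18.9% lower in *nac1L*, and 12.5% and 15.2% after centring. In *nac25*, 2 were higher, against 1 at a q of 0.01, 4 with adjustment within the comparison and 8 after centring, and 32 were lower, against 8 after centring. Over all tested genes, 6.25% were higher and 32.8% lower in *nac25*. The higher share was 4.13% at a q of 0.01 and 6.9% with adjustment within the comparison. After centring, 15.8% were higher and 14.7% lower, so the centred *nac25* counts are near the background. Lower calls lost there include genes at the smallest Cuffdiff q (0.000463), such as GAMMA_CA2, FRO1 and QCR9, where centring makes too few calls. The part of this in the drop was not tested. In *nac25* over *nac1L*, 1 was higher, against 0 at a q of 0.01, 0 with adjustment within the comparison and 4 after centring, and 5 were lower, against 0 under each of these 3 settings. Of all genes tested there, 0.609% were higher and 11.7% lower, so the 5 lower calls are near the background. The shares were 0.338% and 4.02% at a q of 0.01, and 0.361% and 5.08% with adjustment within the comparison. After centring they were 2.72% and 1.56%. Over all genes, centring moved the share of calls that were higher from 33.7% to 45.0% in *nac1L*, from 16.0% to 51.8% in *nac25* and from 4.94% to 63.6% between the mutants.

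Leaving out a replicate, another pseudocount and another filter on low values were not run, because the values used here are comparisons and not values per library. No paired analysis was possible because the columns carry no replicate numbers. Reads were too few, by the authors' deposited table, to test AOX1D, AOX1B, NDB4 and the targeted genes in any comparison or NDB3 between the mutants. Whether deeper sequencing would give one was not tested.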

Other observations

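The mitochondrial dysfunction motif was also present in 7 of the 15 stress genes listed beside the members, against 1.42% of all windows searched, in a list drawn from literature that partly overlaps the motif's own definition. Of these 7, 5 were tested. CYP81D8, a cytochrome P450 gene, was higher and SOT12, a sulfotransferase gene, was lower in both mutants in the authors' deposited table, and the other 3 were not called. Genes with the motif were thus called in both directions, as among the members, and so were tested genes at large. Of all tested genes, 9.62% were higher and 18.9% lower in *nac1L*, and 6.25% and 32.8% in *nac25*. ABCB9, the stress gene with the largest rise (log2 1.61 and 1.91 in the authors' deposited table), and DIC2, the one with the largest fall, held neither the motif nor a G-box in the windows searched. No match says only that these letters are absent from the window.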
